A study of Rattus norvegicus with 10 samples.

Results

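The miR-99/100 and miR-125 clusters were followed through 10 mature miRNAs, taken by name from the 765 rat miRNAs of the deposited table. They are the 5 guide (5p) arms miR-99a-5p, miR-99b-5p, miR-100-5p, miR-125a-5p and miR-125b-5p, and the 5 passenger (3p) arms miR-99a-3p, miR-99b-3p, miR-125a-3p, miR-125b-1-3p and miR-125b-2-3p. All 10 had a value above 0 in each library and passed the filter on low values, a mean RPM (reads scaled to a common library total) of 1 or more over the libraries, as did 474 of the 765 miRNAs. The tissue was the hippocampus of 10-week-old Wistar rats, from which small RNA was sequenced in 5 sham-operated libraries (replicates 1 to 5) and 5 libraries after a 2-VO operation (replicates 3, 5, 6, 7 and 8), in which both common carotid arteries are closed so that less blood reaches the brain. No genetic change or further agent is named for either group, and the sources used here give neither the sex of the animals nor the time from operation to sampling. Whether each library stands for its own animal is not said either, and the p-values then describe only the spread of these libraries, which may be technical.

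In mammals a miR-99 or miR-100 gene, a let-7 gene and a miR-125 gene lie next to each other and are copied into the same primary transcript, which is then cut into separate hairpins. miR-125 is the vertebrate counterpart of worm lin-4, which controls developmental timing together with let-7, and miR-99 and miR-100 are known to repress mTOR, a kinase that drives cell growth. In neurons miR-125b acts on synaptic messenger RNAs, among them that of an NMDA receptor subunit. From each hairpin the guide arm is usually kept in the silencing complex while most copies of the passenger arm are degraded.

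A miRNA finds its targets mainly through its seed, bases 2 to 8 from the 5′ end, so the seeds (in capitals) show which guide arms can share targets. RefSeq sequences (build GRCr8) were matched for 9 of the 10 arms, all but miR-99a-5p, whose mature sequence is not in the reference used. The Mir99a hairpin printed below also holds the bases ACCCGUA, the seed of the guide arms shown next. miR-99b-5p and miR-100-5p have the same seed:
miR-99b-5p: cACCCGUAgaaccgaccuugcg
miR-100-5p: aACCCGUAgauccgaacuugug
The miR-125 guide arms have another, which miR-351-5p of the X chromosome also carries, and which no other of the 693 mature names in the reference has:
miR-125a-5p: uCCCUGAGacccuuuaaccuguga
miR-125b-5p: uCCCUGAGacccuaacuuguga
miR-351-5p: uCCCUGAGgagcccuuugagccuga
miR-10a-5p, a Hox-cluster miRNA related to miR-100, has a seed of its own, although 11 bases in a row (GUAGAUCCGAA) occur in both:
miR-10a-5p: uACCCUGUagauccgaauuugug

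The passenger arms divide differently. miR-99a-3p and miR-99b-3p share a seed (capitals) and are the same at 19 of 22 positions:
miR-99a-3p: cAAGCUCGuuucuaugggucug
miR-99b-3p: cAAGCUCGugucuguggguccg
The miR-125 passenger arms have 3 different seeds, but all hold the run UCUUGGGA (capitals in the next lines), which occurs in no other of the 693 names, or in 0.433% of them:
miR-125a-3p: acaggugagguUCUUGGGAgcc
miR-125b-1-3p: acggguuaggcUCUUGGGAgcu
miR-125b-2-3p: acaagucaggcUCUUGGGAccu
miR-125b-5p can be cut from either miR-125b hairpin, while each of its passenger arms marks a single hairpin, and that is why the passenger arms are shown and followed separately. The Mir99a hairpin, with miR-99a-3p in capitals, lies at chr11:29687392-29687472 on the plus strand of GRCr8:
Mir99a: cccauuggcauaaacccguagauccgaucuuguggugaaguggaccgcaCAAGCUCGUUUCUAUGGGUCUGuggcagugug
The Mir125a hairpin, with both arms in capitals, lies at chr1:67350675-67350759 on the plus strand:
Mir125a: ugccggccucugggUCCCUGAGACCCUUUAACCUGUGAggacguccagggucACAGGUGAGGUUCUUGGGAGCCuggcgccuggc

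The 3 clusters differ in how tightly they are packed. In GRCr8, Mir99b, Mirlet7e and Mir125a span 696 bases of chromosome 1 within the coordinates of the protein-coding gene Spaca6. Mir99a, Mirlet7c1 and the mature arms of Mir125b2 span 45257 bases of chromosome 11 within the lncRNA LOC103693508, with 639 bases between the first pair of hairpins and 44382 bases from the let-7c-1 hairpin to the start of miR-125b-5p. Mir100, Mirlet7a-2 and Mir125b1 span 51828 bases of chromosome 8 within Mir100hgl, with gaps of 6828 and 44737 bases. The deposited values were made with build rn6, per the submitters' processing notes, so these positions describe the genes and not the mapping.

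Some names share reads. RefSeq places miR-3588 on the 22 bases of miR-125b-5p, on the opposite strand, and its sequence is the reverse complement. Its row was 2 to 6 reads below that of miR-125b-5p in each library, whose reads ran from 107954 to 150963. It is therefore read as a repeat of miR-125b-5p and was not counted as one of the 10. miR-99a-5p and miR-100-5p are near-identical in sequence, and the sources used here do not give the number of mismatches allowed in counting, so some reads of the one could be listed under the other.

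The libraries rest on 13032805 to 13850400 reads (sham) and 13095384 to 13839174 reads (2-VO), and the listed RPM summed to 66.4% to 77.0% and 60.3% to 78.0% of that total. These sums count 9 pairs of nearly equal rows in full, and with 1 row of each pair they were 64.7% to 74.98% and 58.9% to 76.2%. The lowest sums belonged to 2-VO replicates 3 (60.3%) and 7 (64.2%). An RPM value falls when more reads lie outside the table, so the differences of the 10 arms are also given with the listed RPM as the total. The neuronal miRNAs that mark the tissue were all present, and 8 of them (miR-124-3p, miR-128-3p, miR-9a-5p and others) summed to 182096 to 221913 RPM in sham and 171572 to 223010 RPM in 2-VO libraries.

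miR-99a-5p was the most abundant of the 10 and the fourth most abundant miRNA of the table, with a mean of 32158 RPM over the 10 libraries. It was followed by miR-100-5p (11377 RPM), miR-125b-5p (9692 RPM), miR-99b-5p (6211 RPM) and miR-125a-5p (4530 RPM, the 28th of 474 in level). The passenger arms lay far lower, at 765 RPM for miR-125b-2-3p, 267 RPM for miR-99b-3p, 143 RPM for miR-125b-1-3p, 11.7 RPM for miR-125a-3p and 7.67 RPM for miR-99a-3p. This order held in 10 of 10 libraries for each pair of neighbours except the last, where miR-125a-3p exceeded miR-99a-3p in 9 of 10. The closest pair of guide arms was miR-100-5p and miR-125b-5p, whose ratio ran from 1.03 to 1.35. Ligation of adapters depends on the ends of a small RNA, so the order is that of reads and not strictly of molecules.

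**Figure D1:**
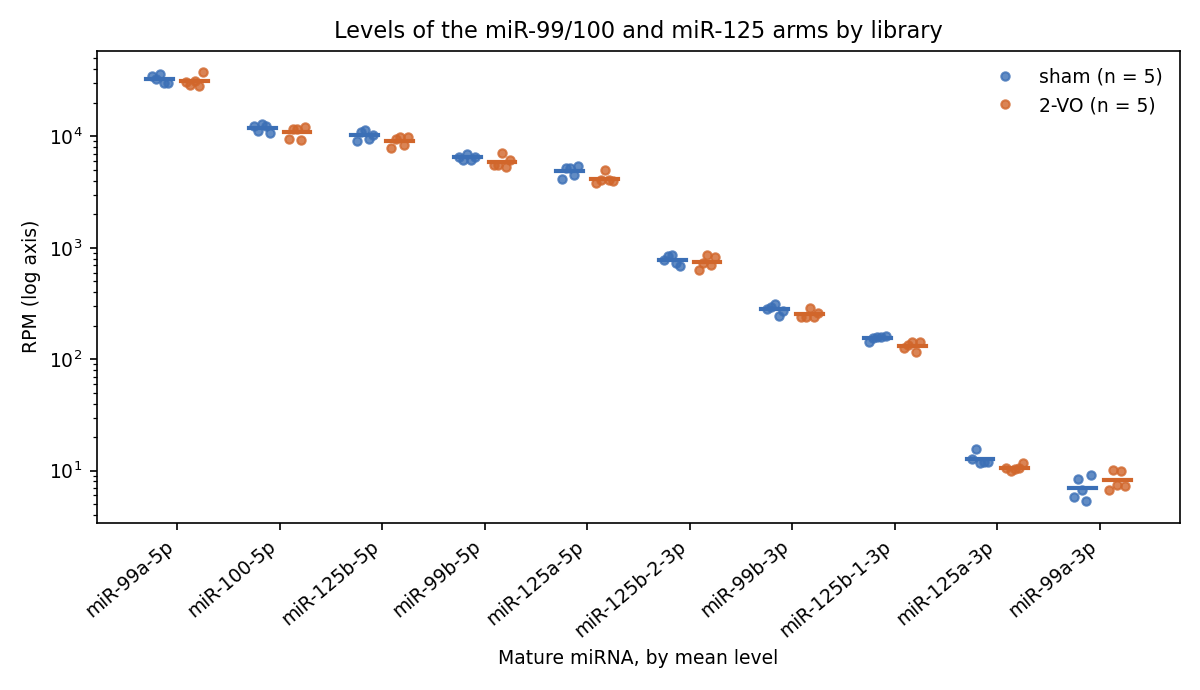
RPM (log axis) of the 10 arms in each library, ordered by mean level, with sham libraries in blue and 2-VO libraries in orange (points, n = 5 each) and group means as bars. The 5 guide arms lie between 3809.8 and 37654 RPM, the passenger arms between 5.33 and 865 RPM, and the groups overlap for each arm.

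Of the listed RPM, 9.41% ± 0.509 (SD, n = 5) belonged to the 10 arms in sham libraries and 9.07% ± 0.540 in 2-VO libraries. miR-99a-5p alone took 4.57% ± 0.383 and 4.56% ± 0.504 of it. The guide arms of miR-125a and miR-125b together held 2.10% ± 0.0901 in sham and 1.92% ± 0.0337 in 2-VO libraries, with 1.95%, 2.16%, 2.16%, 2.10% and 2.13% in sham replicates 1 to 5 and 1.94%, 1.95%, 1.91%, 1.94% and 1.87% in 2-VO replicates 3, 5, 6, 7 and 8. The groups overlapped there only through sham replicate 1, which lay below 2-VO replicate 5. As a percent of the library total they overlapped more, at 1.33% to 1.67% in sham and 1.17% to 1.49% in 2-VO libraries. The guide arms of miR-99a, miR-99b and miR-100 together held 7.13% ± 0.566 in sham and 6.98% ± 0.550 in 2-VO libraries. Their ranges overlapped widely, at 6.44% to 7.91% and 6.45% to 7.62%. These shares describe the libraries and were not tested.

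Carotid occlusion was compared with the sham operation to find miRNAs that differ, and none of the 10 arms passed the threshold, an adjusted p under 0.05. Their levels were lower in 2-VO for 9 and higher for miR-99a-3p, with log2 fold changes from -0.24 (miR-125a-3p) to 0.21 (miR-99a-3p) and a median of -0.14, where the median over all 474 miRNAs was -0.051 and 62.2% of them were lower. Over all miRNAs 0 of 474, or 0%, passed in limma after Benjamini-Hochberg adjustment (the smallest adjusted p was 0.44), and 0 did with limma's voom, while 24, or 5.06%, had an unadjusted p under 0.05 and 25 did with voom. Among the 10 arms, miR-125a-5p and miR-125b-1-3p were at that level, both lower in 2-VO, as were 4.22% of all miRNAs. For 0 of the 10 arms did the groups lie apart without overlap, against 0.633% of all miRNAs. For 10 of 10 arms, and for 85.7% of all miRNAs, the 95% interval of the difference lay inside 1.5-fold on both sides. The upper end for miR-99a-3p was 1.47-fold, and the log2(RPM + 1) scale understates the change of such low miRNAs.

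miR-125a-5p, of the compact chromosome 1 cluster, stood at 4122, 5200.1, 5149, 4487 and 5471 RPM in sham replicates 1 to 5. In 2-VO replicates 3, 5, 6, 7 and 8 it stood at 3809.8, 4078, 4993, 4032 and 3954 RPM. All but 2-VO replicate 6 lay below the lowest sham library. Its means were 4886 ± 559.6 and 4173 ± 469 RPM (SD, n = 5) and its log2 fold change was -0.23 ± 0.11 (SE), with an adjusted p of 0.76 in limma.

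miR-125b-5p, which shares the seed of miR-125a-5p, stood at 9132, 10872, 11505, 9485 and 10288 RPM in the sham libraries. The 2-VO libraries, in the same order as before, held 7871, 9516, 9900.2, 8403 and 9947 RPM. Each of them lay below the sham mean and 2 lay below the lowest sham library, so the groups overlapped. The means were 10257 ± 974 and 9127 ± 938 RPM (SD, n = 5). On the log2 scale the 2-VO group was lower, at -0.17 ± 0.099 (SE; limma adjusted p = 0.77).

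miR-99b-5p, the neighbour of miR-125a, stood at 6564, 6167, 7018, 6121 and 6596 RPM in the sham libraries. In the 2-VO libraries it stood at 5487, 5527, 7122, 5317 and 6191 RPM. 2-VO replicate 6 held the highest value of all 10 libraries and 2-VO replicates 3, 5 and 7 the lowest. Its log2 fold change was -0.14 ± 0.096 (SE; limma adjusted p = 0.82), from means of 6493 ± 366 and 5929 ± 746 RPM.

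miR-100-5p stood at 12291, 11272, 13034, 12268 and 10633 RPM in the sham libraries. In the 2-VO libraries it stood at 9546, 11535, 11630.1, 9336 and 12224 RPM. 2-VO replicates 3 and 7 lay below each sham library, and the other 3 lay within the sham range. Means of 11899 ± 945 and 10854 ± 1319 RPM (SD, n = 5) gave a log2 fold change of -0.14 with an SE of 0.10 (limma adjusted p = 0.82), which was -0.086 without 2-VO replicate 7.

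The most abundant arm, miR-99a-5p, stood at 35001, 32646, 36138, 29969 and 30382 RPM in the sham libraries. In the 2-VO libraries it stood at 30924, 29029, 31507, 28327 and 37654 RPM. Its means were 32827 ± 2733 and 31488 ± 3687 RPM (SD, n = 5). The highest value of all 10 libraries was in 2-VO replicate 8 and the lowest in 2-VO replicate 7, and the groups overlapped widely. Its log2 fold change was -0.064 ± 0.096 (SE; limma adjusted p = 0.96), with a 95% interval of -0.27 to 0.14. It was -0.13 without 2-VO replicate 8 and -0.027 without 2-VO replicate 7.

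Among the passenger arms, miR-125b-1-3p, which marks the miR-125b-1 hairpin next to miR-100, stood at 142, 154, 159.7, 157 and 160.4 RPM in the sham libraries. In the 2-VO libraries it stood at 126, 134, 144, 116 and 142 RPM, so 3 of them lay below the lowest sham library. The log2 fold change was -0.22 with an SE of 0.097 (limma adjusted p = 0.76), and its unadjusted p of 0.036 (limma) was the smallest of the 10 arms and the 17th smallest of 474. miR-125b-2-3p, which marks the other miR-125b hairpin, stood at 776, 849, 865, 732 and 682 RPM and at 634, 732, 853, 703 and 826 RPM. Its values overlapped almost throughout (log2 fold change -0.062 ± 0.11, SE; limma adjusted p = 0.96), and the log2 fold change was -0.0037 without 2-VO replicate 3.

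miR-125a-3p, the passenger of the miR-125a hairpin shown above, stood at 12.9, 15.6, 11.7, 12.0 and 11.9 RPM in the sham libraries. In the 2-VO libraries it stood at 10.5, 10.0, 10.4, 10.5 and 11.7 RPM. 4 of the 5 lay below the lowest sham library, and 2-VO replicate 8 barely reached into the sham range. Its log2 fold change was -0.24 ± 0.11 (SE; limma adjusted p = 0.76), and an exact two-sided permutation test gave an unadjusted p of 0.016. By that test miR-125a-3p and miR-125b-1-3p were under 0.05, as were 6.75% of all miRNAs. With 131 to 211 reads per library, counting error alone gives a coefficient of variation (CV, the SD relative to the mean) of 6.88% to 8.74%, and the CV was 12.9% in sham and 6.0% in 2-VO libraries. The 2-VO libraries thus varied less than counting error gives.

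miR-99b-3p stood at 283, 297, 311, 244 and 270.2 RPM in the sham libraries and at 241, 241, 287, 238 and 261 RPM in the 2-VO libraries (log2 fold change -0.15 ± 0.10, SE; limma adjusted p = 0.82). As for its guide arm, 2-VO replicate 6 was the highest of its group. miR-99a-3p went the other way, with 5.78, 8.45, 6.71, 5.33 and 9.05 RPM in sham and 6.71, 10.2, 7.45, 9.84 and 7.23 RPM in 2-VO libraries. Its log2 fold change was 0.21 ± 0.16 (SE; limma adjusted p = 0.84), 0.13 without sham replicate 4 and 0.14 without 2-VO replicate 5. It rests on 72 to 133 reads per library, for which counting error gives a CV of 8.67% to 11.8%, and its CV was 23.1% in sham and 19.3% in 2-VO libraries.

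**Figure D2:**
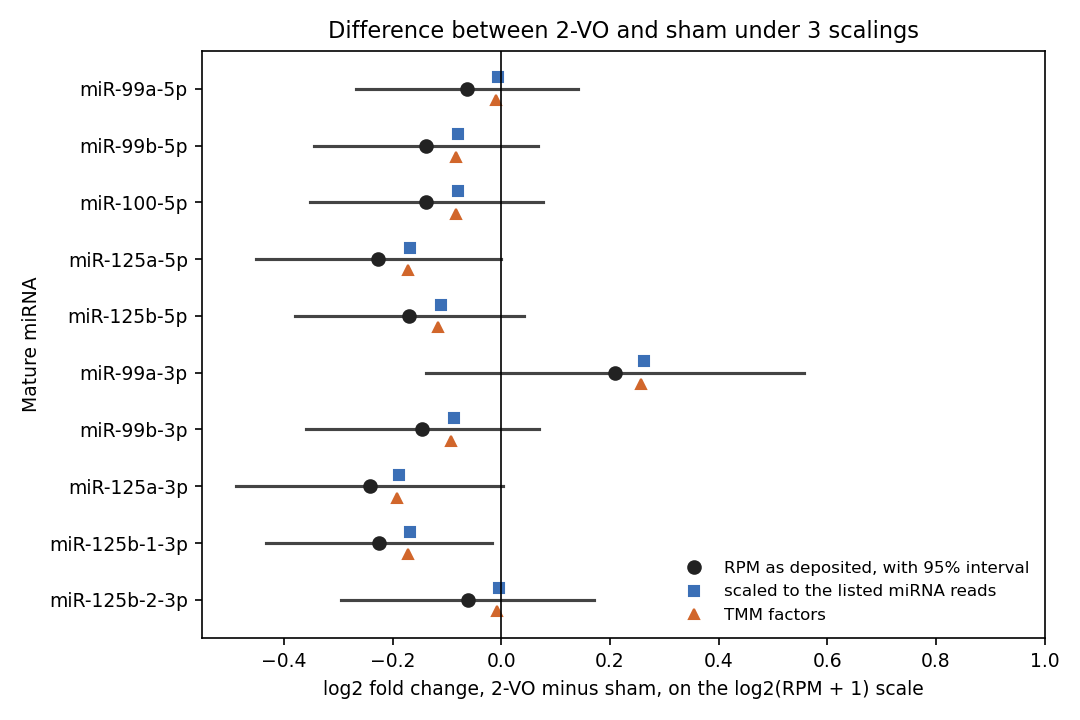
Log2 fold change of 2-VO over sham for the 10 arms (x axis) with RPM as deposited (black points, bars showing the 95% interval), with values scaled to the listed miRNA reads (blue squares) and with trimmed-mean (TMM) factors (orange triangles). 9 of the 10 points lie below 0 under each of these scalings, the interval of miR-125b-1-3p lies below 0, and that of miR-125a-5p ends at -0.00033.

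The direction depended little on the scaling, but the size did. With the listed RPM as the total, the log2 fold change was -0.0054 for miR-99a-5p, -0.080 for miR-99b-5p, -0.080 for miR-100-5p, -0.17 for miR-125a-5p and -0.11 for miR-125b-5p. For the passenger arms it was 0.26 for miR-99a-3p, -0.088 for miR-99b-3p, -0.19 for miR-125a-3p, -0.17 for miR-125b-1-3p and -0.0038 for miR-125b-2-3p. Thus 9 of the 10 were lower in 2-VO on this scale, though miR-99a-5p and miR-125b-2-3p only barely. The median log2 fold change of the 10 was -0.084, where the median over all miRNAs was 0.00061 and 49.4% were lower. Arms of a cluster can come from the same transcript, so the 10 are not independent of each other. With TMM factors the median of the 10 was -0.088 against -0.0034 over all miRNAs. On both scales miR-125a-5p, miR-125b-5p and miR-125b-1-3p had an unadjusted p under 0.05, as had 35 and 38 of the 474 miRNAs, or 7.38% and 8.02% (limma, smallest adjusted p among the 10 of 0.62 and 0.49). After quantile normalization 8 of the 10 were lower, since miR-125b-2-3p stood at 0.030, and miR-125b-5p stood at -0.024. As deposited, none of the 10 was at an unadjusted p under 0.05 (limma) without sham replicate 2, 3 or 5 or without 2-VO replicate 3, 5 or 7. The share of all miRNAs at that level in these fits was 2.53%, 2.95%, 7.81%, 4.43%, 4.22% and 4.64%. Without sham replicate 1, 2 of the 10 were at that level, against 5.7% of all miRNAs. Without sham replicate 4, 1 was, against 5.27%. Without 2-VO replicate 8, 2 were, against 8.86%. Without 2-VO replicate 6, 3 were, as were 42 of the 474 miRNAs, or 8.86%.

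In several libraries most arms lay on the same side of their own means, although not all arms varied together. Over the 10 libraries Pearson's r of log2(RPM + 1) was 0.065 for miR-99a-5p and miR-125a-5p and 0.79 for miR-125a-5p and miR-125b-5p. All 10 arms lay below their own mean over the 10 libraries in 2-VO replicate 3, and 9 of 10 did in 2-VO replicate 7, the libraries with the smallest sum of listed RPM. In sham replicate 3, whose sum was 77.0%, 9 of 10 lay above. In 2-VO replicate 6, with the highest sum (78.0%), 7 of 10 lay above, and miR-125a-5p exceeded the other 2-VO libraries. Sham replicates 4 (66.4%) and 1 (68.1%) had 7 and 4 of 10 below, and 2-VO replicate 5 (69.6%) had 8 of 10 below. On the scale of the listed RPM 2-VO replicate 3 had 4 of 10 below, and 2-VO replicates 5, 6, 7 and 8 had 8, 7, 8 and 7 below. The part of this sum in these differences was not tested further.

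**Figure D3:**
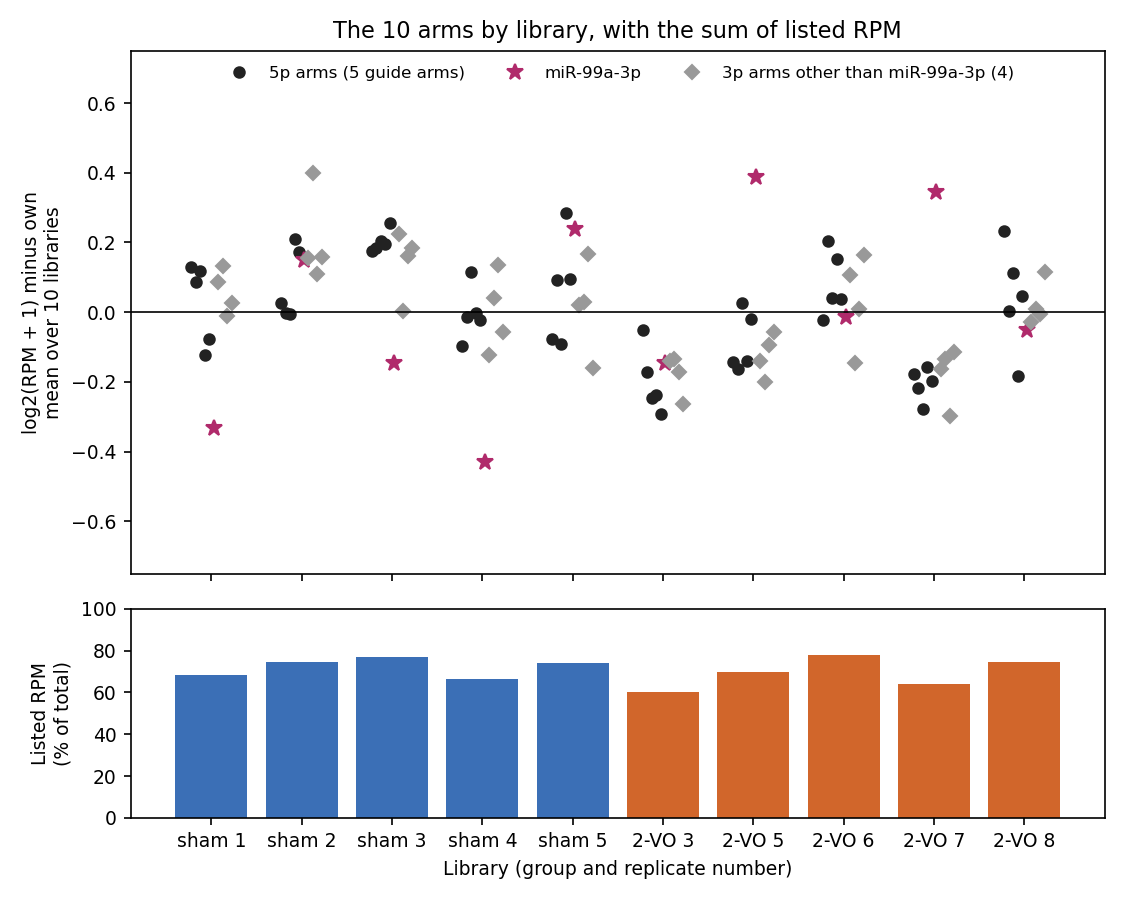
Upper panel: log2(RPM + 1) of each arm minus its own mean over the 10 libraries, by library, for guide arms (black), miR-99a-3p (star) and the other passenger arms (grey). Lower panel: listed RPM as a percent of the library total in sham (blue) and 2-VO (orange) libraries. 2-VO replicates 3 and 7 have the lowest sums, 60.3% and 64.2%, and 10 and 9 of the 10 arms below their means.

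Within a group the guide arms mostly varied less than the median miRNA, 4 of the 5 in sham and 5 of the 5 in 2-VO libraries. They were not compared with miRNAs of like level. Their CV ran from 5.64% (miR-99b-5p) to 11.5% (miR-125a-5p) in sham and from 10.3% to 12.6% in 2-VO libraries, where the median over the 339 miRNAs of at least 10 RPM was 11.4% and 14.9%. With 52253 to 521098 reads per library, counting error gives at most 0.437%, so nearly all of the spread lay between libraries.

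Ratios inside a library do not depend on the divisor of the RPM, and 11 were compared between the groups to ask whether genes of a cluster, or paralogs, differed unequally. In the compact miR-99b cluster, miR-99b-5p stood at 3.47 ± 0.347 times let-7e-5p in sham and at 3.49 ± 0.264 times that level after 2-VO (SD, n = 5). The log2 difference was 0.013, with a 95% interval of -0.18 to 0.20. miR-99b-5p stood at 1.34 ± 0.163 and 1.42 ± 0.0950 times miR-125a-5p. In the miR-99a cluster, miR-99a-5p stood at 2.75 ± 0.441 and 2.83 ± 0.264 times let-7c-5p and at 3.22 ± 0.355 and 3.46 ± 0.380 times miR-125b-5p. In the miR-100 cluster, miR-100-5p stood at 1.86 ± 0.372 and 1.95 ± 0.302 times let-7a-5p and at 1.17 ± 0.145 and 1.19 ± 0.0474 times miR-125b-5p. let-7a-5p, let-7c-5p and miR-125b-5p also come from other hairpins, so only the ratios of the miR-99b cluster compare arms named for a single cluster. let-7e-5p is the same as let-7a-5p at 21 of 22 positions, so some let-7a-5p reads could be listed under it.

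None of the 11 ratios differed between the groups beyond the spread of the libraries (exact two-sided permutation tests, smallest p = 0.12, adjusted p from 0.77 to 0.87). A design of 5 against 5 allows no p below 0.0079. The smallest p belonged to miR-125b-1-3p over miR-125b-2-3p, the passenger arms of the miR-125b hairpins on chromosomes 8 and 11. This ratio was 0.183, 0.181, 0.185, 0.214 and 0.235 in the sham libraries and 0.199, 0.183, 0.168, 0.165 and 0.172 in the 2-VO libraries. The difference of -0.16 on the log2 scale (95% interval -0.37 to 0.044) was -0.10 without sham replicate 5. The paralogs miR-125b-5p and miR-125a-5p kept a ratio of 2.11 ± 0.141 in sham and 2.20 ± 0.221 in 2-VO libraries, and miR-99a-5p stood at 2.76 ± 0.185 and 2.92 ± 0.295 times miR-100-5p. The 95% intervals of these log2 differences ran from -0.12 to 0.24 and from -0.11 to 0.26.

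**Figure D4:**
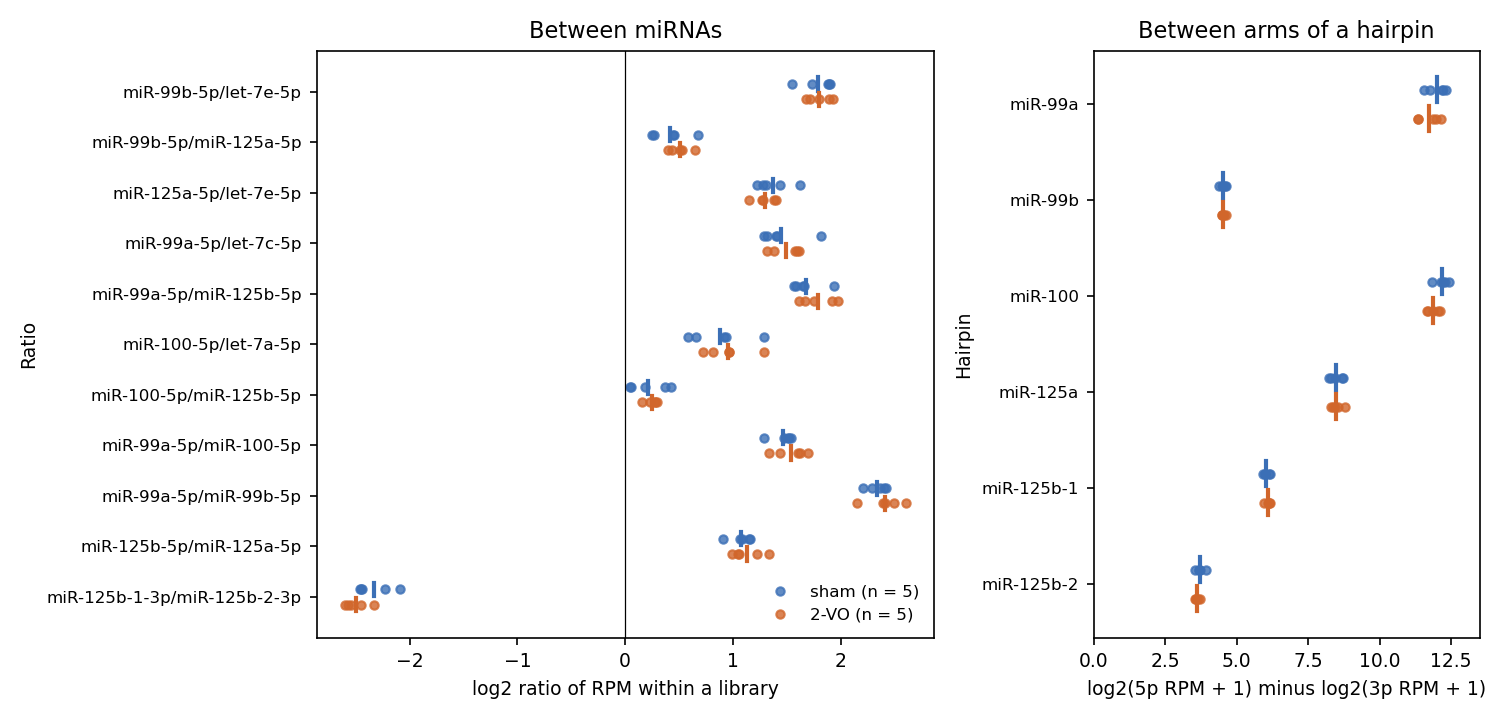
Left: log2 ratio of RPM between miRNAs within each library. Right: log2(5p RPM + 1) minus log2(3p RPM + 1) for 6 hairpins. Points are sham (blue) and 2-VO (orange) libraries, n = 5 each, and vertical bars their means. The groups overlap in each row, and the 5p excess is largest for miR-100 and miR-99a.

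The 2 arms of a hairpin were found at very unequal levels. Over the 10 libraries the mean RPM of miR-100-5p was 6562 times that of miR-100-3p (named with its cluster, not one of the 10), and that of miR-99a-5p 4193 times that of miR-99a-3p. Kept arms were paired into 134 hairpins where their names differed only in the arm. Of numbered passenger arms, only those of miR-125b were paired, so other such hairpins with both arms kept were left out. Among the 134, miR-100 and miR-99a had the second and the third largest difference between arms, on the log2 scale tested below. The excess of the guide was 387-fold for miR-125a, 67.6-fold for miR-125b-5p over miR-125b-1-3p, 23.2-fold for miR-99b and 12.7-fold for miR-125b-5p over miR-125b-2-3p. Since the miR-125b guide arm comes from 2 hairpins, its last ratios are upper limits for either hairpin alone. The paralogs miR-99a and miR-99b, whose passenger arms share a seed, thus differed widely in how much of that arm was found.

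Whether the balance of the arms differed between the groups was tested on log2(5p RPM + 1) minus log2(3p RPM + 1), over the 134 paired hairpins. Of these 0, or 0%, passed (limma, smallest adjusted p = 0.13), and 15, or 11.2%, had an unadjusted p under 0.05. The ratio of miR-100 was among the 15, at 12.2 ± 0.226 for sham and 11.9 ± 0.212 for 2-VO (SD, n = 5). It was lower by a difference of -0.31 ± 0.13 (SE; limma adjusted p = 0.38). That passenger arm had 14 to 34 reads per library, for which counting error gives a CV of 17.1% to 26.7%. The miR-99a ratio was 12.0 ± 0.334 and 11.7 ± 0.371 (difference -0.27 ± 0.19, SE; limma adjusted p = 0.61), and the difference was -0.17 without 2-VO replicate 5 and -0.18 without 2-VO replicate 7. For miR-99b, miR-125a and miR-125b-1 the differences were 0.0078, 0.016 and 0.056, with 95% intervals of -0.18 to 0.20, -0.26 to 0.29 and -0.14 to 0.25. Leaving out sham replicate 3 gave 0.086 for miR-125b-1, leaving out sham replicate 4 gave 0.023, and leaving out 2-VO replicate 3 gave 0.092. For miR-125b-2 the difference was -0.11 ± 0.092 (SE; limma adjusted p = 0.68). Leaving out sham replicate 5 gave -0.058.

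The other products named for hairpins of the 3 clusters were 7 rows. Of these, 6 were lower in 2-VO, as were 62.2% of all miRNAs, and 1 (miR-100-3p) was higher. Their median log2 fold change was -0.11, against -0.051 over all miRNAs, and 0 passed (limma, 0 also at an unadjusted p under 0.05). let-7a-5p and let-7c-5p among them are also made elsewhere. let-7e-5p, which lies between miR-99b and miR-125a, stood at 1881 ± 139 and 1699 ± 176 RPM (SD, n = 5; log2 fold change -0.15, limma adjusted p = 0.81). let-7c-1-3p, which marks the let-7c hairpin next to miR-99a, stood at 15.4 ± 1.91 and 12.7 ± 1.52 RPM, and 4 of the 5 2-VO libraries lay below the lowest sham library (log2 fold change -0.25, limma adjusted p = 0.76). let-7a-2-3p, which marks the let-7a hairpin next to miR-100, stood at 1.52 ± 0.194 and 1.46 ± 0.291 RPM. let-7a-1-3p and let-7c-2-3p, from let-7 hairpins on chromosomes 17 and 7 and so outside the clusters, held the same values (log2 fold change -0.077), and RefSeq gives them the same sequence. miR-100-3p stood at 1.57 ± 0.365 and 1.90 ± 0.416 RPM.

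Relatives by sequence lay at far lower levels than the guide arms. miR-351-5p, with the miR-125 seed, had means of 44.1 ± 9.45 RPM (sham) and 41.6 ± 7.71 RPM (2-VO), so miR-125a-5p and miR-125b-5p supplied nearly all reads with that seed. miR-10a-5p stood at 12.7 ± 9.72 and 21.4 ± 8.79 RPM and miR-10b-5p at 2.05 ± 1.28 and 3.19 ± 1.13 RPM (SD, n = 5). Their values spread several-fold within a group, from 2.67 to 27.0 RPM for miR-10a-5p in sham libraries, and neither passed (limma adjusted p = 0.76 each).

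For each guide arm, the miRNAs outside the 10 with the most similar pattern over the 10 libraries were sought among 322 miRNAs of at least 10 RPM, by Pearson's r of log2(RPM + 1). These values describe the same 10 libraries, share the divisor of the RPM and carry no test. miR-125b-5p was most like miR-9b-3p (r = 0.96, Spearman's rho = 0.92), miR-124-5p (r = 0.93) and miR-9a-3p (r = 0.92), 3 arms of neuronal miRNA hairpins. miR-100-5p was most like miR-379-5p of the imprinted Dlk1-Dio3 locus (r = 0.95, rho = 0.89), miR-125a-5p like miR-185-5p (r = 0.94, rho = 0.89), miR-99b-5p like miR-380-5p (r = 0.89, rho = 0.88), and miR-99a-5p like miR-22-3p and miR-22-5p, both arms of a single hairpin (r = 0.82 and 0.81). On the share of the listed reads r with miR-125b-5p was 0.80 for miR-9b-3p, 0.73 for miR-124-5p and 0.54 for miR-9a-3p. For the other guide arms it was 0.87 for miR-379-5p, 0.87 for miR-185-5p, 0.55 for miR-380-5p, 0.76 for miR-22-3p and 0.72 for miR-22-5p. Next in order stood miR-1843a-5p and miR-143-3p for miR-100-5p, miR-328a-3p and miR-92b-3p for miR-125a-5p, miR-671 and miR-30c-2-3p for miR-99b-5p, and miR-344b-3p for miR-99a-5p. Within the 10, the highest r was that of miR-99b-5p and miR-99b-3p, the arms of 1 hairpin (0.84, or 0.60 on the share of listed reads), while miR-99a-5p and miR-99a-3p had an r of -0.47.

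Marker miRNAs of other cells moved between libraries too. In bulk tissue fewer cells of a type and less RNA per cell cannot be told apart. The 4 choroid plexus miRNAs (miR-204-5p, miR-211-5p, miR-448-3p and miR-1298) summed to 786 to 1942 RPM in sham and 609.9 to 794 RPM in 2-VO libraries, with the highest sum in sham replicate 5, and 4 of 4 were lower after 2-VO, with a median log2 fold change of -0.57, where 62.2% of all miRNAs were lower. Of the 4, 2 had an unadjusted p under 0.05 (limma), as had 5.06% of all miRNAs, and 0 passed after adjustment. The 7 miRNAs of epithelium, sensory cells and hindbrain, among them miR-10a-5p and miR-10b-5p, summed to 15.01 to 41.6 RPM and 22.0 to 95.9 RPM, highest in 2-VO replicate 3, with miR-196a-5p listed at 0 in each library. The 6 of them that passed the filter were all higher in 2-VO (median log2 fold change 0.66), where 62.2% of all miRNAs were lower. Of these 6, 0 had an unadjusted p under 0.05 (limma), against 5.06% of all miRNAs. The sums of 4 astrocyte-enriched miRNAs were 18812 to 24853 RPM in sham and 18629 to 23216 RPM in 2-VO libraries. Those of 3 oligodendrocyte miRNAs were 1865 to 2762 and 1615 to 2923 RPM, of 4 vessel miRNAs (miR-143-3p among them) 18699 to 21179 and 15973 to 22630.0 RPM, of 6 leukocyte and microglia miRNAs 371 to 431 and 355 to 428 RPM, and of 3 red blood cell miRNAs 129.8 to 155 and 84.1 to 215 RPM. Their part in the values of the 10 arms was not tested.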

How the data were processed

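Small RNA sequencing of the rat hippocampus gave 1 table of RPM values, deposited by the authors, with a column for each of 10 libraries. bcl2fastq, BWA and the build rn6 are named in the submitters' processing notes. The sources used here do not give the annotation, the use of strand, how reads with several matches were counted or which reads make up the divisor. With 1 divisor per library, each value above 0 came to a whole number of reads (tolerance 0.01 reads). The smallest was 10 reads, so fewer are taken to be listed as 0.

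For the 474 miRNAs that passed a mean of 1 RPM, log2(RPM + 1) was compared between the groups with limma 3.58.1 in R 4.3.3 (mean-variance trend, two-sided, no covariate, Benjamini-Hochberg adjustment over all 474, threshold 0.05). Fold changes on this scale understate the change of low miRNAs. Arm ratios were tested likewise over 134 hairpins, and 11 ratios between miRNAs by exact permutation over 252 assignments, adjusted over the 11. The 95% intervals reflect the spread between libraries. Counting errors leave out PCR copies, since the labels' protocols name no molecular identifiers. The fits were tested on simulated data. Other settings changed the pseudocount, filter, scaling, test, repeated rows and block, or left out each library.

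The members and lists were chosen with earlier results of these data known. Named miRNAs are the 10 members, the let-7 and miR-100-3p products of the 3 clusters with the let-7 arms let-7a-1-3p and let-7c-2-3p, relatives by seed or sequence, the repeat row and the 3 miRNAs most like each guide arm. Marker miRNAs of cell types come from lists of known markers.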

Additional observations from a re-analysis of the deposited data

Results flagged for a closer look

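For 4 of 56 sets of 5 values, an end library was separated from its neighbour by more than 0.71 of the set's whole range, and about 2.8 such sets arise by chance. In sham replicate 1 the ratio of miR-99a-5p to let-7c-5p was 3.52 (others 2.44 to 2.66), and that of miR-99a-5p to miR-125b-5p was 3.83 (others 2.95 to 3.16). In sham replicate 4 the ratio of miR-99a-5p to miR-100-5p was 2.44 (others 2.77 to 2.90). In 2-VO replicate 6 miR-125a-5p stood at 4993 RPM (others 3809.8 to 4078 RPM).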

How the results depend on the processing

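The number of miRNAs past the adjusted threshold was 0 with RPM as deposited and under each of the 22 other settings, and 9 of the 10 arms were lower in 2-VO in each of them except a filter of 10 RPM, with 9 of 9 tested, and quantile normalization, with 8 of 10, where the log2 fold change of miR-125b-2-3p was 0.030. Of 422 differences recomputed under another setting, 0 passed the adjusted threshold, 316 kept their sign and stayed within 1.5 times the value reported, 91 kept their sign and moved further, and 15 changed sign. Settings that changed only the filter, the repeated rows or the p-value left the estimates as they were. That part of the 316 was fixed in advance. The number of miRNAs at an unadjusted p under 0.05 was 38 with TMM factors and 39 after quantile normalization, against 24, and ran from 12 (without sham replicate 2) to 42 (without 2-VO replicate 6 or 8) when 1 library was left out. For hairpins past the threshold the range was 0 to 3, with 3 without sham replicate 5 and 1 without 2-VO replicate 3, none of them among the 6 hairpins described. Differences near 0 changed sign when 1 library was left out. The range was -0.031 to 0.036 for the arm ratio of miR-99b and -0.057 to 0.081 for that of miR-125a, which was -0.041 with a pseudocount of 5. It was -0.047 to 0.043 for miR-99b-5p over let-7e-5p, -0.010 to 0.085 for miR-100-5p over miR-125b-5p and -0.0088 to 0.18 for miR-100-5p over let-7a-5p. The causes were not tested. With the divisor's reads as the total, the 10 arms held 6.76% in sham and 6.27% in 2-VO libraries.

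Replicate numbers 3 and 5 occur in both groups, but nothing in the labels pairs these libraries, and the deviations of same-numbered libraries over 474 miRNAs had correlations of -0.058 and -0.18. With the number as a replicate block, 9 arms were lower, 0 miRNAs passed and 17 had an unadjusted p under 0.05 (limma). Depth limits miR-99a-3p, miR-125a-3p and miR-100-3p, whose reads are few.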
